A study of Mus musculus with 6 samples.

Results

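The miRNAs described here come from 5 mouse hairpins, Mir1964, Mir6539, Mir374c, Mir3091 and Mir326, which were picked because miRNAs of theirs were strongly lower in RAW 264.7 cells after oxidized low-density lipoprotein (ox-LDL). Their 8 arm names were looked up in a table of 1109 mature miRNAs, and 7 had a row. Those were mmu-miR-1964-3p, mmu-miR-6539, mmu-miR-374c-3p, mmu-miR-3091-3p, mmu-miR-3091-5p, mmu-miR-326-3p and mmu-miR-326-5p, named below without the mmu prefix, while mmu-miR-1964-5p was not analysed here. Because the same comparison chose them, their differences between groups are given as a description with no test. The tests below are on related miRNAs that were chosen by sequence and position, though with earlier results of these data known.

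The study sequenced small RNA of 14 to 36 nt from RAW 264.7, an established macrophage line of male origin. The ox-LDL group was 3 libraries of cells given ox-LDL for 48 h, and the control group was 3 libraries of cells without treatment. All 6 came from this 1 line. The labels give no dose, and they do not tell whether libraries of a group were separate cultures, so p-values measure the spread between these libraries, which may be technical. The control columns are named for 0 h, so hours in culture and ox-LDL cannot be told apart.

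A miRNA is cut from a hairpin first in the nucleus by Drosha and then in the cytoplasm by Dicer, which leaves a short duplex of a 5p and a 3p arm. One arm is usually kept by an Argonaute protein as the guide, and the other is mostly degraded. The guide finds messenger RNAs chiefly through its seed, bases 2 to 8, so miRNAs with the same seed share many predicted targets. Macrophages that take up ox-LDL fill with lipid and become foam cells, the cells typical of atherosclerotic plaque.

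RefSeq (GRCm38.p6) held mature sequences for 7 of the 8 arm names. Those of the 6 measured arms are printed 5′ to 3′ with the seed in capitals, together with miR-330-5p, which turned out to share a seed with one of them.
miR-1964-3p: cCGACUUCugggcuccggcuuu
miR-374c-3p: aCUUAGCAgguuguauuau
miR-3091-5p: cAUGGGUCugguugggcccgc
miR-3091-3p: cGGGCCUGaccagucucaagac
miR-326-5p: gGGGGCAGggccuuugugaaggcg
miR-326-3p: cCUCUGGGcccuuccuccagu
miR-330-5p: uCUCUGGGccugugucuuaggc
No seed was shared among the 6 arms themselves. Their G and C content ran from 31.6% in miR-374c-3p to 71.4% in miR-3091-5p, with a median of 65.2%, against a median of 50.0% over the tested entries that had a RefSeq sequence. Of the 6 sequences, 5 matched 1 annotated hairpin and no other transcript of the GENCODE annotation. The exception was miR-374c-3p, whose letters also occur in the Mir374b hairpin.

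All 5 hairpins lie inside a longer gene (GRCm38 positions from GENCODE), and 4 lie in an intron on the strand of a protein-coding host. Mir1964 (chr7:29773294-29773376, plus strand) is in an intron of Zfp84, a zinc finger gene, 1890 bases after one exon and 1961 bases before the next. Mir6539 (chr14:67859636-67859745, minus strand) is in an intron of Dock5, which encodes an activator of the GTPase Rac that mouse osteoclasts use to resorb bone. Mir326 (chr7:99552269-99552363, plus strand) is in an intron of Arrb1, which encodes beta-arrestin 1, an adaptor that switches off G protein-coupled receptors. Mir3091 (chr2:180257536-180257611, plus strand) is in an intron of Rps21, a gene for a protein of the small ribosomal subunit. Only 9 bases separate the end of this hairpin from the next Rps21 exon, and 88 bases separate its start from the exon before. Mir374c (chrX:103573085-103573133, plus strand) lies antisense to an intron of Ftx, a long noncoding RNA gene of the X-inactivation centre. The table holds miRNAs only, so levels of the host transcripts were not analysed here.

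The highest fold difference among the better-measured arms was that of miR-1964-3p, a miRNA with few described functions. It had 29, 39 and 37 reads in the ox-LDL libraries, against 404, 333 and 291 reads in the control libraries. In CPM (counts scaled to the size of each library, with edgeR's TMM correction for composition) these were 5.40, 6.40 and 6.22 with ox-LDL, against 55.3, 44.1 and 39.7 in control. The groups were far apart, with every control library above every ox-LDL library. The means were 6.01 ± 0.533 CPM with ox-LDL and 46.4 ± 8.02 CPM in control (SD, n = 3 each), a log2 fold change of -2.94 (SE 0.201), or 7.69 times lower. Ordered by mean CPM over all 1109 entries, it stood at rank 324 with ox-LDL and at rank 204 in control. In such bulk libraries fewer cells that make a miRNA and less of it per cell cannot be told apart.

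Of the 5 arms with groups more than 3 times apart, miR-6539 was the most abundant by reads. Its reads were 648, 744 and 907 in the ox-LDL libraries, against 3969, 3617 and 3780 in the control libraries. After scaling it was at 121, 122 and 152 CPM with ox-LDL and at 543, 479 and 516 CPM in control. No ox-LDL library came near a control library, and the log2 fold change was -1.96 (SE 0.145), or 3.89 times lower. At this depth counting error was small: the coefficient of variation (CV) between libraries was 13.6% with ox-LDL and 6.29% in control, where read sampling alone would give 3.61% and 1.62%.

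Fractions of reads were given for miR-374c-3p, with 55, 81.5 and 70.5 reads in the ox-LDL libraries and 336.5, 294 and 336.5 reads in the control libraries. Of its 6 values, 4 were not whole. In CPM it was at 10.2, 13.4 and 11.8 with ox-LDL and at 46.0, 38.9 and 45.9 in control. The groups did not overlap, and the log2 fold change was -1.88 (SE 0.177), or 3.68 times lower. Its CV was 13.3% with ox-LDL and 9.35% in control, where sampling of whole reads at these values would give 12.04% and 5.57%. Because the values hold fractions of reads, how much of the spread is counting error is not known.

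Both arms of miR-3091 were scarce. The 3p arm had 1, 2 and 2 reads in the ox-LDL libraries, against 27, 27 and 21 reads in the control libraries. From the summed reads, 5 with ox-LDL and 75 in control, it was 11.8 times lower. The exact (Clopper-Pearson) 95% interval, 4.83 to 37.3 times, covers counting error only. The 5p arm had 12, 8 and 12 reads with ox-LDL, against 31, 29 and 37 reads in control. Its summed reads, 32 and 97, made it 2.38 times lower, with an interval of 1.58 to 3.67 times. Neither interval allows for how the hairpin was picked or for the spread between libraries, so neither is a test. Both arms were lower in every ox-LDL library than in any control library. For each read of the 3p arm there were 12, 4 and 6 reads of the 5p arm with ox-LDL, against 1.15, 1.07 and 1.76 in control. These ratios rest on 1 or 2 reads of the 3p arm per ox-LDL library.

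The miRNA miR-326 is known from brain and from T cells: in mouse it promotes the Th17 type of helper T cell by repressing Ets1, and in human glioma it targets Notch receptors. Its arms are unequal, and the steep difference was in the rare 5p arm. That arm had 3, 7 and 2 reads in the ox-LDL libraries, against 29, 27 and 17 reads in the control libraries. Over the summed reads, 12 with ox-LDL and 73 in control, it was 4.77 times lower, with an interval for counting error of 2.57 to 9.66 times. This interval is no test either, since the hairpin was picked for a difference between these groups. The lowest control library was above the highest ox-LDL library, at 2.32 against 1.15 CPM.

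The abundant 3p arm of miR-326 does not belong among steep falls. Its reads were 3830, 3859 and 4290 in the ox-LDL libraries, against 5229, 5658 and 8573 in the control libraries. In CPM they were 713, 634 and 721 with ox-LDL and 715, 749 and 1170.2 in control, so the groups overlapped, and control replicate 3 stood above the rest. The log2 fold change was -0.35 (SE 0.196), and -0.12 without control replicate 3. The CV in control was 28.9%, against 7.02% with ox-LDL, where read sampling alone gives 1.24% and 1.58%. Per 100 reads of the 3p arm there were 0.0783, 0.181 and 0.0466 reads of the 5p arm with ox-LDL, against 0.555, 0.477 and 0.198 in control.

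**Figure D1:**
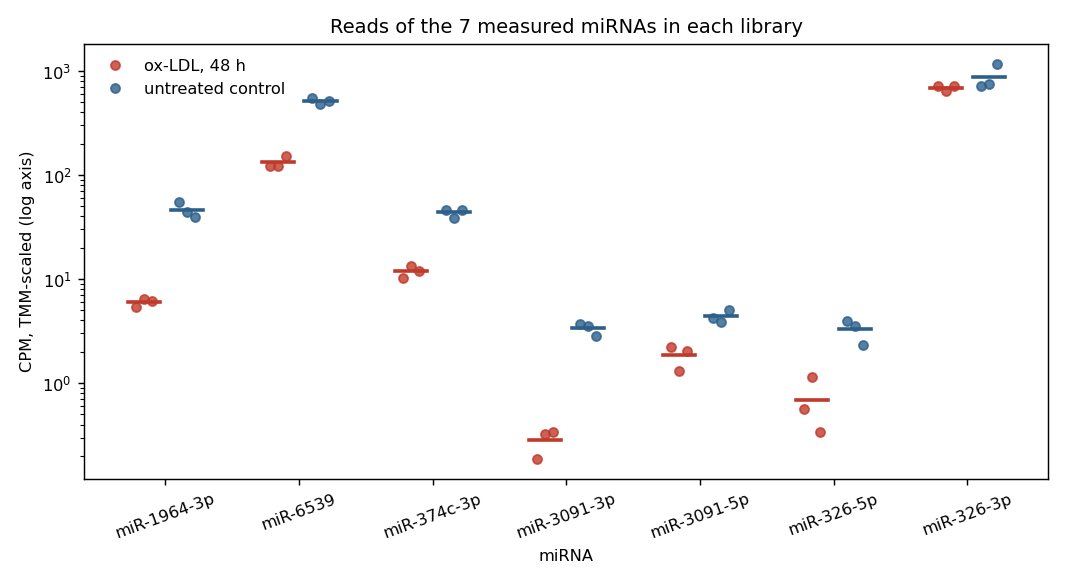
CPM after TMM scaling (log axis) of each measured miRNA in every library, ox-LDL on the left of each pair and untreated control on the right; points are libraries and bars are group means (n = 3). The groups are apart for 6 of the 7 miRNAs, and overlap for miR-326-3p, where the ox-LDL libraries are at 634 to 721 CPM and the control libraries at 715 to 1170.2 CPM.

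Over all measured miRNAs, 475 entries passed the filter on low reads, and edgeR's quasi-likelihood test (Benjamini-Hochberg adjusted p under 0.05) called 24% of them lower with ox-LDL (114 entries) and 21.7% higher (103). Groups that did not overlap, with ox-LDL lower, were found for 30.9% of the 475. All 7 measured miRNAs were among the 475. With ox-LDL lower, 6 of them were called and 6 had groups that did not overlap, which the way they were picked makes certain for most and from which nothing is read. The 3 scarce ones, both miR-3091 arms and miR-326-5p, passed the filter on low reads through the control libraries alone. The 475 entries had a median log2 fold change of -0.13, and entries at least 3 times lower and called made up 7.16% of them.

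**Figure D2:**
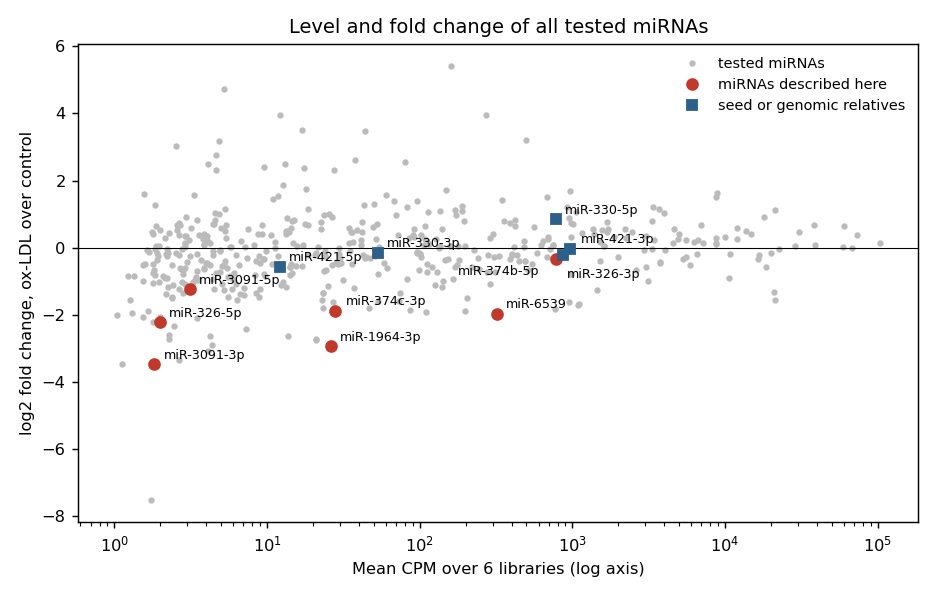
Log2 fold change of ox-LDL over control against mean CPM over 6 libraries (log axis) for 475 tested entries; red circles are the 7 miRNAs described here and blue squares 5 related miRNAs. The red circles run from -3.47 for miR-3091-3p to -0.35 for miR-326-3p, and miR-330-5p is above 0 at 0.84.

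Which miRNAs are related to these was settled by sequence and position, though with earlier results of these data known. Among RefSeq mature miRNAs, miR-326-3p has the seed of miR-330-5p, and their sequences share a run of 9 bases. The seed of miR-3091-3p is that of miR-2861, which was not among the measured entries. Within 10000 bases of the 5 hairpins the annotation holds no miRNA other than Mir374b and Mir421, both near Mir374c. With the other arms of these hairpins the table gave 5 related measurements, miR-330-5p, miR-330-3p, miR-374b-5p, miR-421-3p and miR-421-5p, and a row for miR-374c-5p that repeats miR-374b-5p. Of the 5, 1 was higher at an adjusted p under 0.05, none was lower and 4 did not pass, against the 21.7% higher and 24% lower over the table.

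The miRNA that rose was miR-330-5p, the seed partner of miR-326-3p, from a hairpin that lies on the same chromosome and overlaps an annotated exon of Eml2, a microtubule-associated protein gene (chr7:19181465-19181562, plus strand). It had 5122, 5955 and 6279 reads in the ox-LDL libraries, against 4144, 4591 and 3591 reads in the control libraries. In CPM it was at 954, 978 and 1055.3 with ox-LDL and at 567, 608 and 490.2 in control, so that it was higher in 3 of 3 ox-LDL libraries than in any control library. The means were 996 ± 52.96 CPM with ox-LDL and 555 ± 59.7 CPM in control (SD, n = 3 each), 1.79 times higher (log2 fold change 0.84, SE 0.122, edgeR adjusted p = 0.00108). Over 12 other settings of edgeR or DESeq2 the adjusted p was between 4.86e-08 and 0.00707.

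The other arm of that hairpin, miR-330-3p, had 281, 328 and 273 reads with ox-LDL, against 435, 437 and 379 in control. Its log2 fold change was -0.15 (SE 0.150, edgeR adjusted p = 0.421), and the groups overlapped at 52.3, 53.9 and 45.9 CPM with ox-LDL and 59.5, 57.9 and 51.7 CPM in control. Per 100 reads of the 5p arm the 3p arm thus had 5.49, 5.51 and 4.35 reads with ox-LDL and 10.5, 9.52 and 10.6 reads in control.

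The reads that carry the shared seed were also set against each other. Of the CPM of miR-326-3p and miR-330-5p added together, miR-326-3p made up 42.8%, 39.3% and 40.6% in the ox-LDL libraries, against 55.8%, 55.2% and 70.5% in the control libraries. The groups did not overlap in this share. The sum was 1668, 1611 and 1776 CPM with ox-LDL, against 1282, 1357 and 1660.4 CPM in control, and here they overlapped. The share includes a miRNA picked for its difference, so it has no test, and adaptor ligation favours some RNA ends, so it is a share of reads and not of molecules.

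**Figure D3:**
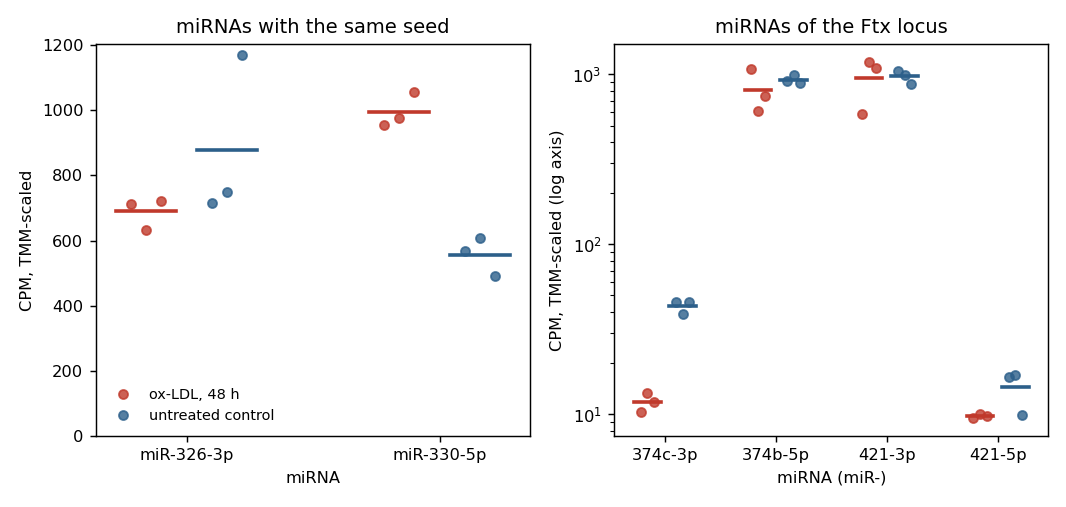
CPM after TMM scaling in every library, ox-LDL on the left of each pair and untreated control on the right; points are libraries and bars are group means (n = 3). The left panel has the seed partners miR-326-3p and miR-330-5p, the second of which is at 954 to 1055.3 CPM with ox-LDL and 490.2 to 608 CPM in control; the right panel (log axis) has miRNAs of the Ftx locus, of which miR-374c-3p has groups that do not overlap.

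The Mir374c and Mir374b hairpins overlap on opposite strands of the X chromosome. Each is printed 5′ to 3′ with the 19 bases of miR-374c-3p in capitals, since these show why its reads have more than 1 possible source.
Mir374c, plus strand: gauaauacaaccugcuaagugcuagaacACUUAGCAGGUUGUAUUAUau
Mir374b, minus strand: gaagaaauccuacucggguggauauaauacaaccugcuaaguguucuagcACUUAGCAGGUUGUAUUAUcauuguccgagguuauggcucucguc
The letters of miR-374c-3p stand at bases 29 to 47 of Mir374c and at bases 51 to 69 of Mir374b, where they lie on the strand of Ftx (chrX:103573086-103573104). Mir374b (chrX:103573060-103573154) and Mir421 (chrX:103572921-103572996) both lie in an intron of Ftx on its own strand. The 20 bases of miR-374c-5p are likewise contained in the 22 bases of miR-374b-5p. So reads of either miR-374c arm cannot be assigned to a strand from the sequence, and the rule by which the authors divided them is not given in the sources.

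The deposited values of the 5p arms were tied to each other. For miR-374c-5p they were 2871.5, 1851 and 2209 reads with ox-LDL and 3358.5, 3725.5 and 3256.5 in control, which is 50.0% of the miR-374b-5p reads in every library, to within 2.5 reads. It was therefore not counted as a separate measurement. The 5p arm itself, miR-374b-5p, had 5743, 3701 and 4415 reads with ox-LDL, against 6712, 7450 and 6511 in control. At 1069.8, 608 and 742 CPM with ox-LDL and 918, 986 and 889 CPM in control, the groups overlapped (log2 fold change -0.21, SE 0.199, edgeR adjusted p = 0.416). Ox-LDL replicate 1 was the highest library of all, and leaving it out gave a log2 fold change of -0.48 (edgeR adjusted p = 0.0344).

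The miR-374c-3p reads thus differed between groups where the miR-374b-5p reads overlapped. The annotated 3p arm of Mir374b, miR-374b-3p, shares a run of 11 bases with miR-374c-3p and was not among the measured entries. Per 100 reads of miR-374b-5p there were 0.958, 2.20 and 1.60 reads of miR-374c-3p with ox-LDL, against 5.01, 3.95 and 5.17 in control. Every ox-LDL library was below every control library in this ratio, a description with no test, since miR-374c-3p was picked for its difference.

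Neither arm of the neighbour miR-421, which represses the DNA damage kinase ATM in human cells, passed. Its 3p arm had 3126, 7228 and 6494 reads with ox-LDL and 7643, 7524 and 6440 reads in control, with a log2 fold change of -0.03 (SE 0.247, edgeR adjusted p = 0.933) whose sign depended on the scaling. Ox-LDL replicate 1, the highest library for miR-374b-5p, was the lowest for miR-421-3p, at 582 CPM against 1187 and 1091 CPM in the other ox-LDL libraries and 1046, 996 and 879 CPM in control. The 5p arm had 51, 61 and 58 reads with ox-LDL, against 121, 128 and 72 in control. Its log2 fold change was -0.57 (SE 0.240, edgeR adjusted p = 0.0831), and it passed without control replicate 3 (-0.81, adjusted p = 0.0104), with library totals alone (adjusted p = 0.0301) and when entries had to average 10 CPM or more (adjusted p = 0.0435).

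**Figure D4:**
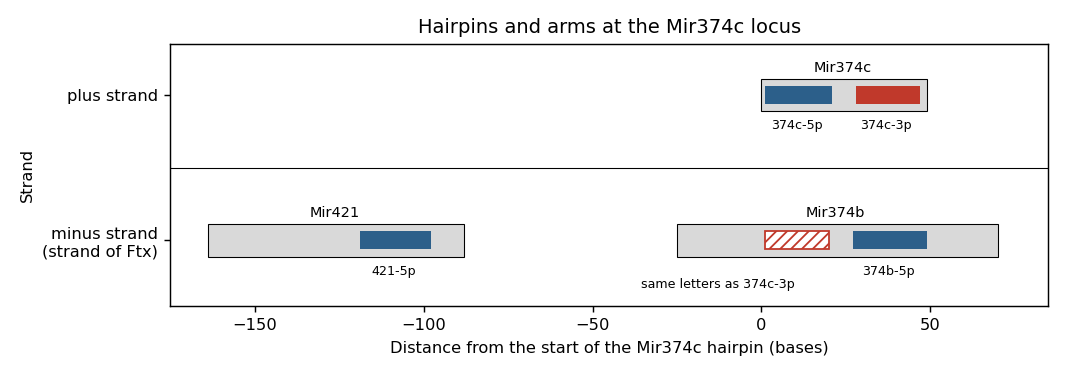
Hairpins (grey) and those measured arms that have a RefSeq sequence (red for miR-374c-3p, blue for others) by strand, against the distance in bases from the start of the Mir374c hairpin; the hatched box is the stretch of Mir374b with the same 19 letters as miR-374c-3p. Mir374c lies within the span of Mir374b on the opposite strand.

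Of the 7 measured miRNAs, miR-3091-3p and miR-326-5p are the less abundant arm of a hairpin with both arms tested. The table held 125 such hairpins, leaving out miR-374c, whose 5p values repeat those of miR-374b-5p. Both miR-199a and miR-199b were kept, although their 3p arms, the major ones, have the same values in every library. Over the 125 hairpins, 37 of the 125 minor arms were called lower and 17 higher, against 20 lower and 46 higher among the 125 major arms. The median log2 fold change was -0.23 for minor arms and 0.15 for major arms, and the minor arm was below its major arm in 85 hairpins and above it in 40. By position in a host gene, of the 190 tested entries in an intron on the host's strand, the class of miR-1964-3p, miR-6539 and both miR-3091 and miR-326 arms, 22.6% were called lower, against 24.7% of all tested entries with 1 located hairpin. These classes were drawn up after the values were seen and are given with no test.

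**Figure D5:**
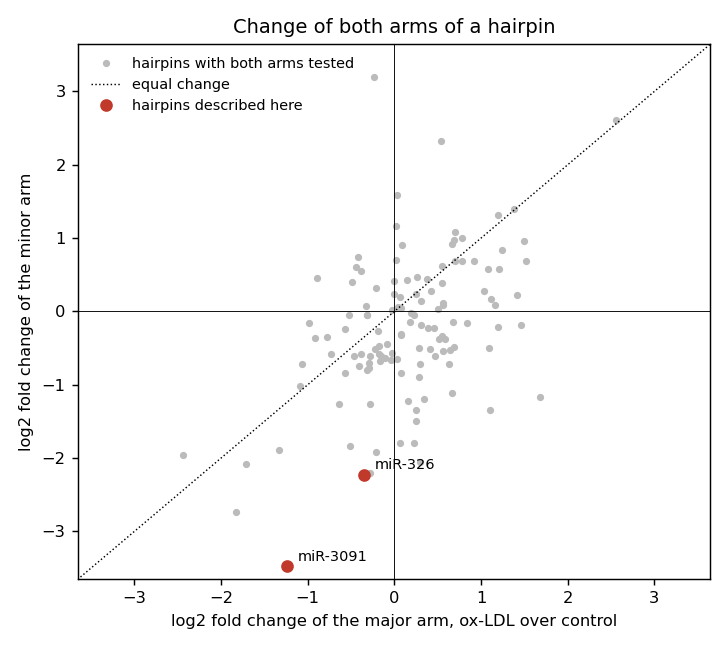
Log2 fold change of the minor arm against that of the major arm, ox-LDL over control, for 125 hairpins with both arms tested; the dotted line marks equal change and red circles are the miR-3091 and miR-326 hairpins. Both red circles are under the dotted line, and so are most grey points, 85 of 125 hairpins in all.

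The entries with the most similar pattern over the 6 libraries were named for the 4 miRNAs with a mean of at least 10 CPM, by Pearson's r of log2 CPM among 295 other entries. For miR-1964-3p they were miR-18a-3p (r = 0.999) and miR-92a-3p (r = 0.994), both from clusters of the miR-17-92 family. For miR-6539 they were miR-128-1-5p (r = 0.999) and miR-301a-5p (r = 0.993), and for miR-374c-3p they were miR-222-5p (r = 0.997) and miR-8115 (r = 0.991). The closest to miR-326-3p were miR-7a-1-3p (r = 0.910) and miR-138-5p (r = 0.865), which like it were highest in control replicate 3. With 6 libraries in 2 groups, any entry with a like gap between groups has a high r, so these are descriptions.

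The macrophage label and other cell types were checked with lists of marker miRNAs. All 6 myeloid markers were present, with a summed level of 183450 to 206582 CPM with ox-LDL and 168049 to 186604 CPM in control. Most of this was miR-21a-5p and miR-142a-5p, which overlapped between groups, while miR-146a-5p was called higher (2.82 times) and miR-155-5p lower (1.55 times). Neither miR-142a-3p nor miR-223-3p was called. The first had means of 6031 CPM with ox-LDL and 5127 CPM in control, and the second only 109 and 73.5 CPM. Lists for other cells were lower and had no marker at 0 in all libraries. The 5 neural markers summed to 599 to 907 CPM with ox-LDL and 974 to 1515 CPM in control. Nearly all of this was miR-128-3p, at 546 to 853 CPM with ox-LDL and 893 to 1452 CPM in control. It was called lower (log2 fold change -0.79). The neuronal miR-124-3p had 3, 1 and 33 reads with ox-LDL and 8, 41 and 4 in control. Going the other way, the scarce miR-219a-5p was called higher (log2 fold change 0.67), at means of 6.58 CPM with ox-LDL and 4.16 CPM in control. Groups overlapped for miR-9-5p and miR-138-5p. The 3 erythroid markers summed to 32.5 to 60.3 CPM with ox-LDL and 64.2 to 213 CPM in control, and the 2 endothelial ones to 104 to 269 CPM with ox-LDL and 277 to 478 CPM in control. Of the erythroid ones, miR-451a was called lower (log2 fold change -1.59), and miR-486a-5p and miR-144-3p did not pass. Nearly all of the endothelial sum was miR-126a-3p, which was called lower (log2 fold change -1.09). The groups overlapped for miR-126a-5p, which had at most 8 reads per library. The groups overlapped for fibroblast markers (2337 to 5124 CPM with ox-LDL, 3566 to 5682 CPM in control), muscle markers (62.7 to 231 and 75.1 to 476 CPM), the liver marker (1.97 to 11.9 and 5.05 to 85.7 CPM) and epithelial markers (46.6 to 60.6 and 39.3 to 48.4 CPM). Among the 4 epithelial markers, miR-200b-3p (log2 fold change 0.75) and miR-200c-3p (0.79) were called higher and miR-203-3p (-1.41) and miR-205-5p (-2.63) lower. Control replicate 2 was the highest library for the erythroid, endothelial, liver, muscle and fibroblast lists. Leaving that library out gave log2 fold changes of -2.9997 for miR-1964-3p, -2.03 for miR-6539 and -1.98 for miR-374c-3p, which are further from 0 than with it, as are -1.35 for miR-3091-5p and -0.48 for miR-326-3p. Those of miR-3091-3p (-3.45) and miR-326-5p (-2.19) were nearer to 0. The neural, erythroid and endothelial sums were also lower in every ox-LDL library than in control replicates 1 and 3. The part of other cells in the differences between groups was not tested.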

How the data were processed

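For each mature mouse miRNA the authors deposited an estimated count of reads in every library, unscaled. Of the 6654 values, 117 were not whole (tolerance 1e-06). The aligner, counter and miRNA database version are not given in the sources used here; the submitters' processing notes name the build GRCm38.p5, and its chromosome positions are those of GRCm38 in GENCODE M21. Estimated counts were rounded for the tests. Totals were 5502826, 6572486 and 6310747 reads with ox-LDL and 7373188, 7123499 and 6570099 in control, so 1 CPM after scaling stood for 5.37 to 7.55 reads. No molecular identifiers were stated, and PCR copies are not independent molecules, so intervals cover counting error only.

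The test was the quasi-likelihood test of edgeR (version 4.0.16 in R 4.3.3) on all 6 libraries, with TMM factors, edgeR's filter by group and Benjamini-Hochberg adjustment over 475 entries (threshold 0.05), tested on simulated data. Log2 CPM used a prior count of 2. Log2 arm ratios used a pseudocount of 0.5 reads, with 5 reads as the alternative. Alternatives were RLE factors, library totals alone, other filters, DESeq2 (1.42.0), a replicate block and leaving out each library. The miRNAs described, their relatives and the lists were chosen with earlier results of these data known. Named relatives share bases 2 to 8 with a described miRNA, lie within 10000 bases of its hairpin or belong to the miR-330, miR-374 and miR-421 hairpins; every one measured is named. The 2 entries most like each described miRNA of at least 10 CPM are named too. The arm and host classes, and which single markers to name, were settled with the values in view.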

Additional observations from a re-analysis of the deposited data

How the results depend on the processing

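The count of called miRNAs, 217, was between 167 and 252 with other scalings, filters and DESeq2, 178 with the replicate block, and between 161 and 211 with 1 library left out. With library totals alone 34.2% of 240 calls were higher with ox-LDL, against 47.5% of 217, and the median log2 fold change over the 475 entries was -0.28 in place of -0.13. Same-numbered libraries did not deviate together (correlations -0.29, -0.23 and -0.11). With 3 libraries per group this cannot settle whether the numbers pair samples. The block ended no call among the named relatives (miR-330-5p edgeR adjusted p = 0.00569).

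The described miRNAs were picked for falls in these same libraries, so the sign of a refit was largely set in advance. They were below 0 in 81 of 81 alternative values, from which nothing is read. Of these values, 78 were within 1 SD between libraries of the main value. The others were miR-6539 with library totals (-2.11), miR-3091-3p without ox-LDL replicate 1 (-3.30, against -3.47) and miR-326-5p without ox-LDL replicate 2 (-2.83, against -2.23). For miR-421-3p the log2 fold change of -0.03 was 0.0175 with RLE factors and 0.0175 with DESeq2, and -0.21 to 0.20 with 1 library left out (edgeR adjusted p from 0.175 to 0.963 over all settings). With a pseudocount of 5 reads the mean log2 ratio of 5p over 3p with ox-LDL was 1.23 in place of 2.38 for miR-3091 and -8.83 in place of -9.95 for miR-326. No value for miR-3091 or miR-326-5p could be had at a mean of at least 10 CPM. Depth limits both miR-3091 arms and miR-326-5p, with at most 37 reads per library.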
